A study of Mus musculus with 8 samples.

Results

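Oligodendrocytes wrap axons of the brain in myelin, and 9 genes of this lineage were followed here in the mouse dentate gyrus, a region of the hippocampus. All probes whose gene symbol in the deposited tables was a member were taken, which gave 18 probes out of 56605 on the array. The 9 genes were among 26894 gene symbols. The 3 precursor genes Pdgfra, Olig1 and Olig2 had 5 probes, and the 6 myelin genes Mbp, Mog, Mag, Mobp, Cnp and Cldn11 had 13. Total RNA of the dentate gyrus of male C57BL/6 mice was measured on 8 arrays, 2 in each of 4 groups. Derlin-1 control mice were Derlin-1 flox/flox and Derlin-2 control mice were Derlin-2 flox/flox. The KO mice of each line carried its floxed alleles together with a Cre recombinase driven by the nestin promoter. That promoter is active in neural progenitors, so the deletion would be shared by neurons, astrocytes and oligodendrocytes of the brain. It was not measured by cell type here. The labels name no Cre for the controls. Derlin-1 and Derlin-2 are proteins of the endoplasmic reticulum membrane that take part in the removal of misfolded proteins. The labels give no age and do not say whether replicate arrays came from separate animals, so p-values measure only the spread between these arrays. For the KO samples the genotype given is only the floxed allele, and their group rests on the sample titles.

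As background, oligodendrocytes arise from precursor cells that stay present in the adult brain. Precursors carry the receptor encoded by Pdgfra, which receives a growth signal from neurons and astrocytes. The transcription factors OLIG1 and OLIG2 are made throughout the lineage. On differentiation Pdgfra is switched off and the genes of the myelin sheath are switched on, many of them by the transcription factor SOX10. In the dentate gyrus most myelin lies in the hilus and along its borders and little lies in the granule cell layer. In whole tissue, fewer cells of a type and less RNA per cell cannot be told apart.

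Promoters are shown for 3 myelin genes because the short element bound by SOX proteins is found in them. RefSeq sequences (GRCm38.p6) matched 7 of the 9 genes, and Mbp and Olig1 were not matched. The element was searched as the letters ACAAAG on one strand or CTTTGT on the other, which do not overlap one another, in the 250 bases before each start. It stood at least once in 16.5% of the 32851 promoters of that length and at least 2 times in 1.74%. The Mobp promoter held it 6 times, all as CTTTGT, and no other promoter of the table held it as often (1 of 32851, 0.00304%). The Cnp promoter and the outermost of the Mag promoters held it 1 time each, and those of Cldn11, Mog, Olig2 and Pdgfra held none. The sequences run 5′ to 3′ on the strand of the gene and end before the outermost annotated start of the gene, with the element in capitals. For Cnp that leaves 220 of the 250 bases searched, which still hold its match. They are chr9:120149492-120149741 on the plus strand for Mobp, chr11:100574689-100574908 on the plus strand for Cnp and chr7:30914923-30915172 on the minus strand for Mag.
Mobp: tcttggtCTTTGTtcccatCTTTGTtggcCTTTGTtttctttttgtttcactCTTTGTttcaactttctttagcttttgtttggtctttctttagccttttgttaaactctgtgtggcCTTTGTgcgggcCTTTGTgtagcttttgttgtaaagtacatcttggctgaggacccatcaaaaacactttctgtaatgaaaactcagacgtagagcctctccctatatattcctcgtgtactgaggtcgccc
Cnp: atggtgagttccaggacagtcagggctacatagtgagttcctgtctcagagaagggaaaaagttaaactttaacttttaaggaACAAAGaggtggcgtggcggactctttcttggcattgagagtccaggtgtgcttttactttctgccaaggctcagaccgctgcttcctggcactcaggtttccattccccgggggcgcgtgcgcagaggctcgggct
Mag: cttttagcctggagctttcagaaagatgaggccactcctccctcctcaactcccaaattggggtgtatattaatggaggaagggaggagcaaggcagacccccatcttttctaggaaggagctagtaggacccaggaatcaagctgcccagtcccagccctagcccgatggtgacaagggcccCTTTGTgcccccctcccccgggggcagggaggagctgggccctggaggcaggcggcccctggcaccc
A match of letters is a description of the window and not a measured binding site.

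All 9 genes were detected, and none of their probes passed the test between KO and control in either line. The brightest probes of the 9 genes differed between KO and control by at most 0.24 on the log2 scale with Derlin-1 and 0.18 with Derlin-2. Signals well above background were found on all 8 arrays for 16 of the 18 probes, on 7 arrays for 1 Pdgfra probe and on 6 for 1 Mobp probe, with its spots on the other 2 arrays set aside as outliers. No spot was saturated. Levels are given as log2 of the quantile-normalized signal, in the order control 1, control 2, KO 1 and KO 2. The lowest signal well above background lay between 3.72 and 4.17 on this scale, depending on the array. Where a gene had several probes, its brightest probe is described first. Signals of different probes cannot be read as relative amounts of RNA, so each probe is compared only with itself. The levels of the 9 brightest probes are drawn by array in the plot of the members.

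**Figure D1:**
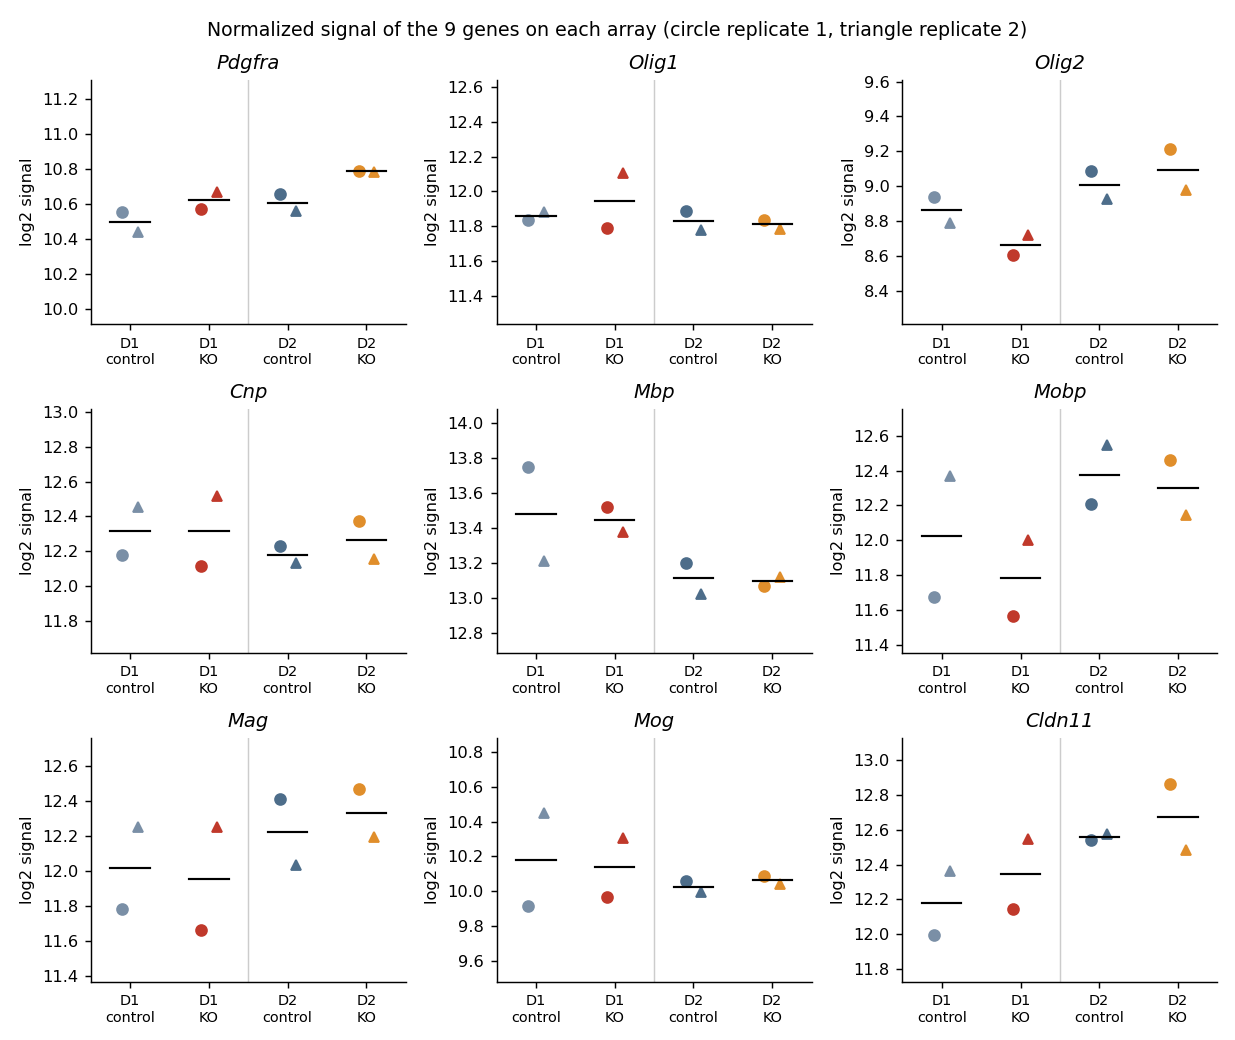
Each panel shows the log2 normalized signal (vertical axis) of the brightest probe of one gene on the 8 arrays, grouped as Derlin-1 (D1) and Derlin-2 (D2) control and KO (horizontal axis). Circles are replicate 1, triangles replicate 2 and bars the mean of the 2 arrays; all panels span the same range of log2 units. Of the 18 comparisons of KO with control, the arrays of the 2 groups overlap in all but 3, which are Pdgfra in both lines and Olig2 on the Derlin-1 arrays.

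Pdgfra encodes a receptor carried by the precursors, and whether its signal in this whole tissue came from precursors alone was not tested. Among the Derlin-1 arrays its log2 levels were 10.56 and 10.44 in the controls and 10.57 and 10.67 in the KO arrays. Among the Derlin-2 arrays they were 10.66 and 10.56 in the controls and 10.79 and 10.79 in the KO arrays. Both KO arrays were above both control arrays in each line, although KO replicate 1 lay close to control replicate 1 on the Derlin-1 arrays. Such a separation was found for 16.2% of 19832 genes on the Derlin-1 arrays and for 17.9% of 19691 genes on the Derlin-2 arrays. The log2 change was 0.12 (SE 0.10; limma, adjusted p = 0.99995) on the Derlin-1 arrays and 0.18 (SE 0.10; adjusted p = 0.981) on the Derlin-2 arrays. The 2 dim Pdgfra probes, which lay at log2 levels of 5.15 and 4.64 on average, showed overlapping groups in both lines. Their changes on the Derlin-2 arrays were -0.12 and -0.06.

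Olig1 and Olig2 encode the basic helix-loop-helix factors of the lineage. Olig1 had log2 levels of 11.84, 11.88, 11.79 and 12.10 on the Derlin-1 arrays and 11.89, 11.78, 11.84 and 11.79 on the Derlin-2 arrays. Its groups overlapped in both lines. Its range over the 8 arrays, with both lines pooled, was 0.33, the narrowest of the 9 brightest probes. Olig2 had log2 levels of 8.94, 8.79, 8.61 and 8.72 on the Derlin-1 arrays and 9.09, 8.93, 9.21 and 8.98 on the Derlin-2 arrays. Both Derlin-1 KO arrays lay below both controls, as in 17.9% of genes, with a log2 change of -0.20 (SE 0.13). In the Derlin-2 line the groups overlapped and the change was 0.09 (SE 0.13). The difference of these 2 changes, -0.29 (SE 0.19), did not pass the test (adjusted p = 0.907).

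Among the myelin genes, Cnp encodes an enzyme of the sheath's inner cytoplasmic layers that appears early in myelination. Its log2 levels were 12.18, 12.46, 12.12 and 12.52 on the Derlin-1 arrays and 12.23, 12.13, 12.38 and 12.16 on the Derlin-2 arrays. In the Derlin-1 line replicate 2 was higher than replicate 1 in the controls and in the KO arrays, and the group means were the same to the second decimal. The log2 changes were 0.00 (SE 0.18, 95% confidence interval -0.44 to 0.44) on the Derlin-1 arrays and 0.08 (SE 0.18) on the Derlin-2 arrays.

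Mag encodes an adhesion protein of the layer of myelin that faces the axon. Its log2 levels were 11.78, 12.25, 11.66 and 12.25 on the Derlin-1 arrays and 12.41, 12.03, 12.47 and 12.19 on the Derlin-2 arrays. Replicate 2 was the higher array in both Derlin-1 groups and the lower array in both Derlin-2 groups. The log2 changes were -0.06 and 0.11 (SE 0.27 each). A second Mag probe, made for another transcript, had both Derlin-1 KO arrays above both controls, with a change of 0.37 (SE 0.19). Its Derlin-2 change was -0.13, so the signs of the 2 probes differed for both lines.

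Mobp encodes a small basic protein of compact central myelin, and it is the gene whose promoter held the element bound by SOX proteins 6 times. Its log2 levels were 11.68, 12.37, 11.56 and 12.004 on the Derlin-1 arrays and 12.21, 12.55, 12.46 and 12.15 on the Derlin-2 arrays. Its range over the 8 arrays, with both lines pooled, was 0.98, the widest of the 9 brightest probes. Its controls differed by 0.69 on the Derlin-1 arrays. The log2 changes were -0.24 and -0.07 (SE 0.28 each). A second Mobp probe had log2 levels of 9.47, 9.99, 8.93 and 9.43 on the Derlin-1 arrays, where both KO arrays were below both controls and its change was -0.55 (SE 0.27). Among the Derlin-2 arrays only 1 array of each group, 11.31 in the control and 10.43 in the KO, gave a value for that probe. Its fitted change there was -0.88 with an SE of 0.39, which rests on the spread within the Derlin-1 groups and on the assumption that the lone arrays vary alike.

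Mog encodes a protein of the outermost surface of myelin. Its log2 levels were 9.91, 10.45, 9.97 and 10.31 on the Derlin-1 arrays and 10.06, 9.996, 10.09 and 10.04 on the Derlin-2 arrays. The Derlin-1 replicates differed by 0.54 in the controls and by 0.34 in the KO arrays, and those of the Derlin-2 line by 0.06 and 0.05. The log2 changes were -0.04 and 0.04 (SE 0.20 each). A second Mog probe had 8.86 and 9.00 in the Derlin-1 controls and 8.27 and 8.71 in the KO arrays, a change of -0.44 (SE 0.26), and the remaining, dimmer probe had -0.14.

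Cldn11 encodes the claudin of the tight junctions between myelin wraps. Its log2 levels were 11.99, 12.37, 12.14 and 12.55 on the Derlin-1 arrays and 12.54, 12.58, 12.86 and 12.49 on the Derlin-2 arrays. The groups overlapped in both lines, with log2 changes of 0.17 and 0.12 (SE 0.21 each).

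Mbp encodes myelin basic protein, which holds the inner faces of the compact sheath together, and its 3 probes differed in pattern. The brightest probe (A_52_P604195, made for NM_001025245) had log2 levels of 13.75, 13.21, 13.52 and 13.38 on the Derlin-1 arrays. In the Derlin-2 line its levels were 13.20, 13.02, 13.07 and 13.12. Among the Derlin-1 arrays it was lower in replicate 2 than in replicate 1 of both groups, the reverse of the 5 other myelin genes. The other 2 probes were made for NM_010777. One (A_55_P2889696) had log2 levels of 12.34, 11.96, 11.73 and 12.16 on the Derlin-1 arrays and 11.95, 11.02, 12.01 and 11.93 on the Derlin-2 arrays. The other (A_52_P329451) had 10.48, 10.11, 9.68 and 10.19 on the Derlin-1 arrays and 10.11, 9.16, 10.29 and 10.24 on the Derlin-2 arrays. Among the Derlin-2 arrays both NM_010777 probes were lowest on control replicate 2. The changes of the brightest probe were -0.03 and -0.02 (SE 0.19 each). Those of the NM_010777 probes on the Derlin-2 arrays were 0.48 (SE 0.33) and 0.63 (SE 0.34), and without control replicate 2 they were 0.02 and 0.15.

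**Figure D2:**
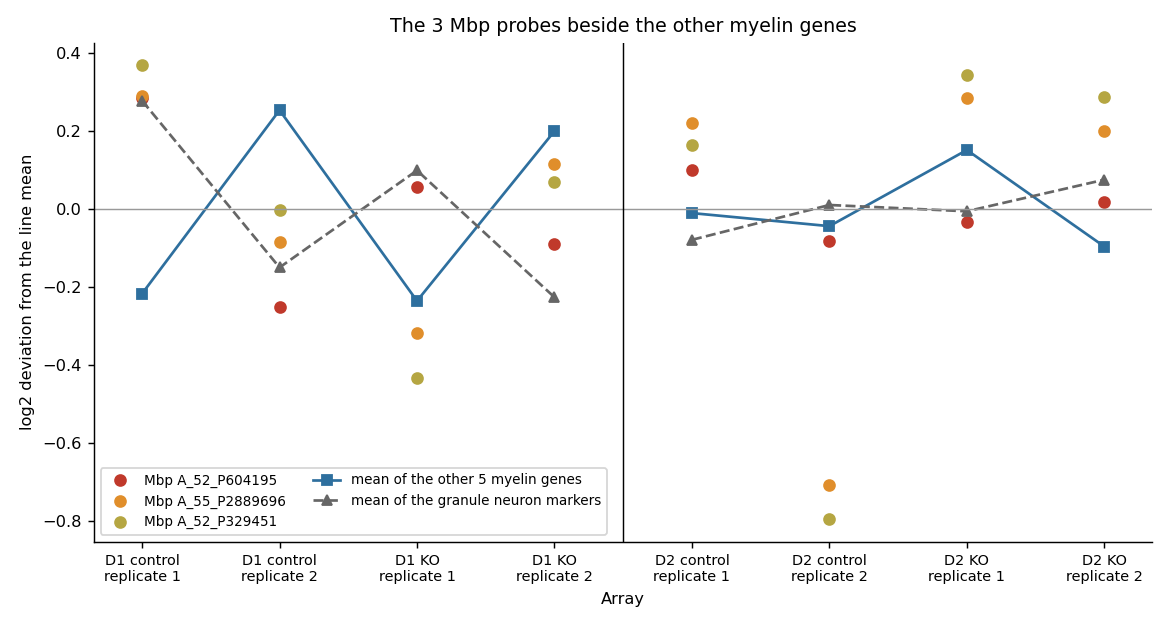
The log2 deviation from the mean of the 4 arrays of the line (vertical axis) is shown for each array (horizontal axis) for the 3 Mbp probes (circles), the mean of the brightest probes of the other 5 myelin genes (squares) and the mean of the granule neuron markers (triangles). In the Derlin-1 line the brightest Mbp probe lies on the other side of the line mean from the other 5 myelin genes on all 4 arrays, and the NM_010777 probes are lowest on control replicate 2 of the Derlin-2 line.

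The comparison of KO with control asked whether loss of either Derlin altered the lineage. None of the 18 probes passed an adjusted p of 0.05 in either line or for the difference of the lines (limma with Benjamini-Hochberg adjustment over all probes). The smallest adjusted p was 0.99995, 0.964 and 0.864 in turn. The Derlin-2 value is that of the second Mobp probe with 1 array against 1, and the smallest of the other 17 probes there was 0.979. Over all probes tested, the same rule called 0% (0 of 39933), 0.0352% (14 of 39787) and 0.00503% (2 of 39785). At an unadjusted p under 0.05, 0 of the 18 probes were called in any of the 3 comparisons, against 4.69%, 5.49% and 5.84% of all probes tested. The 95% confidence intervals of the 9 brightest probes all held 0. They ran from -0.93 at the lowest to 0.68 at the highest on the Derlin-1 arrays and from -0.77 to 0.77 on the Derlin-2 arrays, so changes within those limits were not resolved with 2 arrays a group. The plot of the 18 changes shows each interval.

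**Figure D3:**
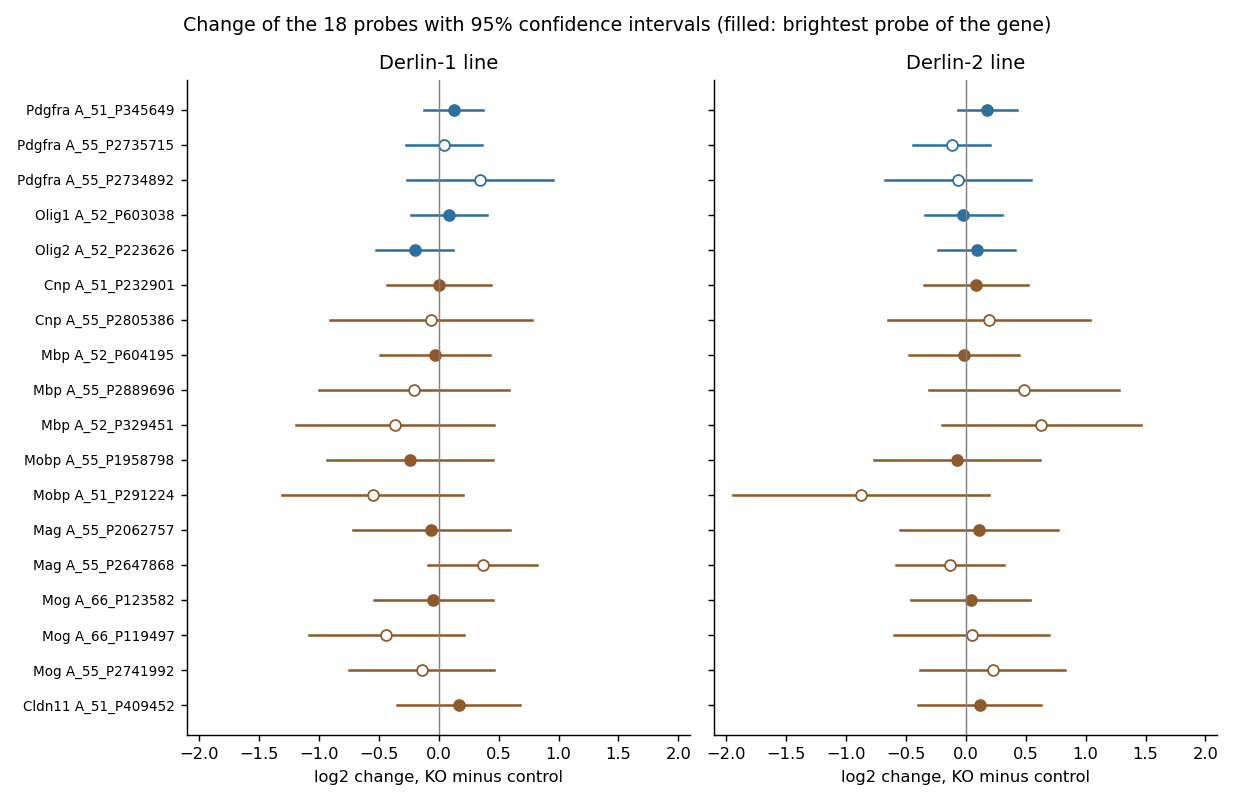
The log2 change of KO minus control (horizontal axis) with its 95% confidence interval from limma is shown for each of the 18 probes (vertical axis), with Derlin-1 on the left and Derlin-2 on the right. Blue marks precursor genes, brown myelin genes, filled circles the brightest probe of a gene and open circles its other probes. Every interval holds 0.

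As groups, the 6 myelin genes had a median log2 change of -0.04 on the Derlin-1 arrays, where 1 was higher and 5 were lower in KO. Among the Derlin-2 arrays their median was 0.06, with 4 higher and 2 lower. The 3 precursor genes had medians of 0.09 in both lines, with 2 higher and 1 lower in each. Over all genes tested the medians were -0.02 and 0.01, and 44% and 52.3% of genes were higher in KO. The Derlin-2 median of the precursor genes was -0.0099 under another background correction (normexp).

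The targeted genes were checked in the same fit. The brighter Derl2 probe had log2 levels of 11.36 and 11.22 in the Derlin-2 controls and 10.63 and 10.65 in the KO arrays, and its change was -0.65 (SE 0.097; adjusted p = 0.269). A second Derl2 probe fell short of the threshold too, with a change of -1.05 (adjusted p = 0.23). The brighter Derl1 probe had log2 levels of 10.86 and 10.76 in the Derlin-1 controls and 10.56 and 10.65 in the KO arrays, a change of -0.20 (SE 0.10). The second Derl1 probe was higher in KO, by 0.46. Where these probes lie relative to the deleted exons is not given in the sources used here. Over the probes kept for the test that had a value on every array, arrays of one group correlated at 0.987 to 0.995. Those of KO and control of a line correlated at 0.988 to 0.994. The 4 arrays of each line shared a slide, so line and slide cannot be told apart and levels are not compared between the lines.

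The gap between the 2 replicates of a group was set beside the KO change of each member. Among the Derlin-1 arrays the larger of the 2 gaps between replicates exceeded the KO change for 7 of the 9 genes, and on the Derlin-2 arrays for 8 of 9. The share over all genes was not counted. The larger of 2 gaps between single arrays tends to exceed a difference of group means, so these counts are not read as a trait of the members. The median difference of replicate 2 minus replicate 1 over the 6 myelin genes was 0.42 in the Derlin-1 controls and 0.40 in the Derlin-1 KO arrays. It was -0.08 in the Derlin-2 controls and -0.25 in the Derlin-2 KO arrays. Over all genes the same median lay between -0.05 and 0.01 in the 4 groups. The 3 precursor genes had medians of -0.12, 0.11, -0.11 and -0.05 in the same order, with opposite signs in the Derlin-1 controls and KO arrays.

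Markers of neurons of different parts of the hippocampus moved with these gaps. Mean deviations from the line mean, in log2 units, were -0.13, 0.17, -0.19 and 0.15 for the myelin genes on the 4 Derlin-1 arrays. For 6 markers of the pyramidal neurons of the neighbouring CA fields they were -0.33, 0.20, -0.24 and 0.36. For 6 markers of dentate granule neurons they were 0.28, -0.15, 0.10 and -0.23. The arrays with a positive myelin deviation thus had a positive CA marker deviation and a negative granule marker deviation among the 4 Derlin-1 arrays. In the Derlin-2 line the CA markers stayed between -0.11 and 0.06 and the granule markers between -0.08 and 0.07. All markers of both lists were well above background on all 8 arrays. The summed granule marker signal ranged from 33336 to 44771 in the Derlin-1 controls, from 34288 to 43065 in the Derlin-1 KO arrays, from 26939 to 28467 in the Derlin-2 controls and from 26359 to 27515 in the Derlin-2 KO arrays. The summed CA marker signal was 58350 to 59276, 51821 to 56186, 60495 to 65373 and 57072 to 58960 in those groups; these sums follow the brightest markers, and the deviations above weigh each marker equally. The part of these differences in the myelin values was not tested. Of the marker lists for other cells (astrocytes, microglia, interneurons, thalamus, choroid plexus, endothelium, fibroblasts and Schwann cells), no gene passed the threshold in either line, and Kcne2 and Prx, each on 1 array, were the only ones not well above background.

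**Figure D4:**
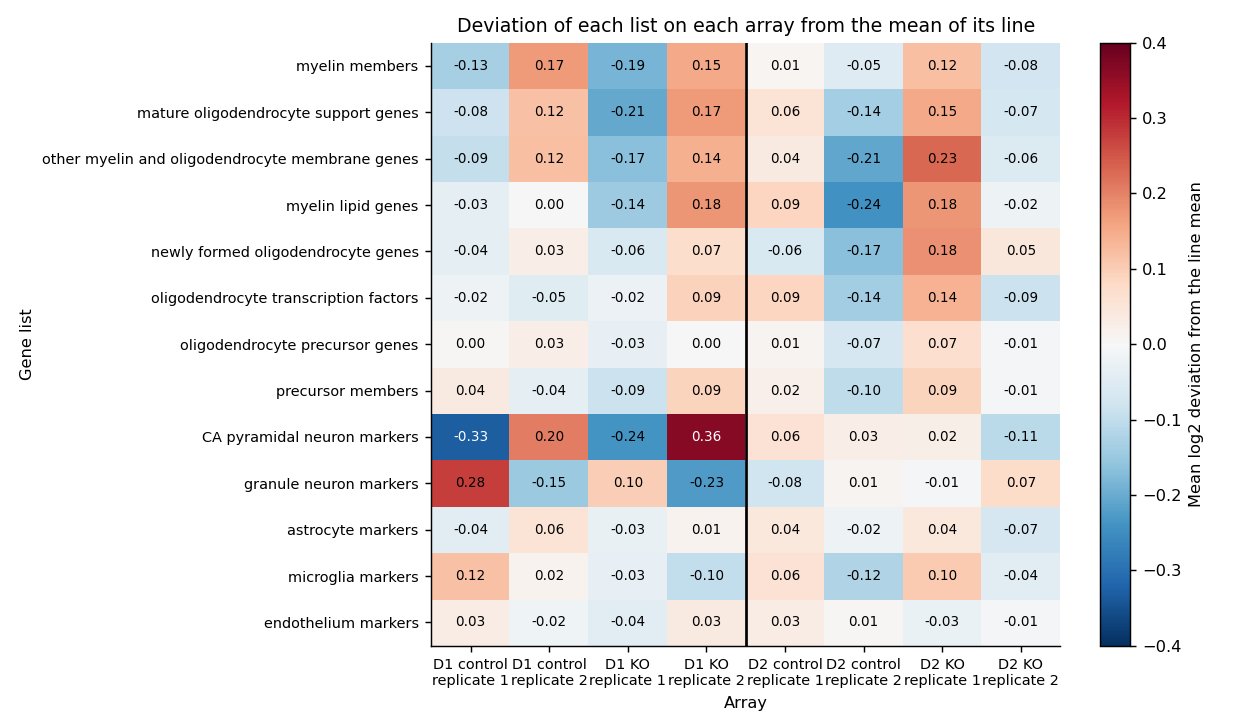
Each cell gives the mean log2 deviation of a gene list (rows) on one array (columns) from the mean of the 4 arrays of its line, in colour from blue (lower) to red (higher) and in figures. In the Derlin-1 line the myelin members and the CA pyramidal neuron markers are below the line mean on both replicate 1 arrays and above it on both replicate 2 arrays, and the granule neuron markers the reverse.

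The members' variation was also compared with one another over the 8 arrays, with the mean of each line removed. These correlations share slides and normalization and are descriptions. Among the 5 myelin genes other than Mbp, the 10 pairs had Pearson r between 0.61 and 0.96, with a median of 0.80, and the highest pair was Cnp with Mag. The brightest Mbp probe had r between -0.86 and -0.53 with those 5 genes. The NM_010777 probes had r of 0.14 and 0.17 with the mean of the other myelin genes, so the 3 Mbp probes gave different pictures of one gene. Olig1 had r of 0.70 with the mean of the 6 myelin genes, Olig2 0.31 and Pdgfra 0.05. Pdgfra and the myelin genes mark opposite ends of the lineage.

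Genes with the most similar pattern were taken from 19665 genes. The 10 with the highest r to the mean of the myelin genes were Gm30591 (0.966), Nrsn1, Gm16152, Il11, Sft2d3, Nkx2-1, Adssl1, Gng11, Btd and Casc1 (0.932), none of them in a lineage list. Among the 100 most alike, 6 of the 68 lineage genes ranked were found: Tmem88b, Pllp, Enpp2, Trf, Tspan2 and Tmem163. Without KO replicate 1 of the Derlin-1 line this count was 0, without KO replicate 2 of that line 3, without KO replicate 1 of the Derlin-2 line 2 and with Mbp left out of the mean 3. The 5 genes most like Pdgfra were Npy2r (0.982), Hrh1, Cd44, Eri2 and Znhit2 (0.973). Among the 100 most like Pdgfra, 0 of the 68 lineage genes ranked were found. The median r of those 68 genes to Pdgfra was 0.45, against 0.05 over all genes. The lists were described in the same way. Median r to the myelin mean was 0.69 for the mature oligodendrocyte support genes, 0.66 for the other membrane genes of myelin and 0.58 for the myelin lipid genes. It was 0.43 for the newly formed oligodendrocyte genes, 0.22 for the precursor genes, 0.22 for the growth signals and 0.21 for the transcription factors. Outside the lineage it was 0.58 for the CA pyramidal markers, 0.47 for the fibroblast markers and -0.76 for the granule neuron markers, against -0.05 over all genes.

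Other genes of the lineage were examined from 7 lists. None of the 84 genes tested passed the threshold for either line. An unadjusted p under 0.05 was found for 3 of them on the Derlin-1 arrays, against 4.23% of all genes, and for 4 on the Derlin-2 arrays, against 4.64%. Among the Derlin-1 arrays the list medians lay between -0.03 and 0.09. Pcdh15, a cadherin found in precursors, had log2 levels of 7.64, 7.68, 7.97 and 8.09 there, with both KO arrays above both controls and a change of 0.37 (SE 0.15). Ermn, a cytoskeletal protein of mature oligodendrocytes, changed by 0.34 (SE 0.13) with values of 16.33, 16.53, 16.84 and 16.71. Notch1, the receptor that holds precursors back from differentiation, had levels of 11.93, 12.77, 13.15 and 13.09 and a change of 0.77 (SE 0.30), with 1 control close to the KO arrays. Their adjusted p was 0.99995 each. The transcription factor Zfp488, which promotes differentiation, had 13.51 and 13.62 in the controls and 13.82 and 13.77 in the KO arrays.

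Among the Derlin-2 arrays most lineage lists had a majority of genes at higher values in KO. Markers of some other cells did so too. Of 5 fibroblast markers, 4 had both KO arrays above both controls (list median 0.23), against 17.9% of all genes. All 5 thalamus markers were higher (median 0.04). Dcn, the first fibroblast marker, went the other way with 13.13, 12.70, 12.64 and 11.77, and the summed fibroblast signal was 9424 to 11569 in the controls and 6527 to 9510 in the KO arrays. The summed thalamus signal was 3402 to 3617 and 3616 to 3700. Other marker lists had a majority of genes at lower values in KO. Of 7 astrocyte markers, 4 had both KO arrays below both controls (list median -0.14), against 14.6% of all genes. Of 5 interneuron markers 4 were lower (median -0.07), and of 6 CA pyramidal markers 4 were lower (median -0.10). The 7 microglia markers had mean deviations from the line mean of 0.06, -0.12, 0.10 and -0.04 and sums of 34820 to 41404 and 36467 to 39280. The part of these cells in the lineage values was not tested. All 7 genes of newly formed oligodendrocytes were higher, with a median log2 change of 0.15, where 52.3% of all genes were higher. In 5 of the 7 both KO arrays were above both controls, as in 17.9% of all genes. Gpr17, a receptor of cells that are just leaving the precursor stage, had log2 levels of 12.57 and 12.38 in the controls and 12.79 and 12.82 in the KO arrays (change 0.34, SE 0.12, adjusted p = 0.833). Enpp6, a choline-releasing phosphodiesterase of new oligodendrocytes, had 7.44 and 6.91 in the controls and 7.95 and 7.71 in the KO arrays (change 0.66, SE 0.20, adjusted p = 0.751). Bcas1, another protein of early myelinating cells, had 13.09 and 12.99 against 13.44 and 13.13 (change 0.25, SE 0.16). In the Derlin-1 line the changes of these 3 genes were -0.04, -0.02 and 0.03. The difference between the lines did not pass the test for any lineage gene.

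The genes of the sheath itself leaned the same way but less evenly. Of the 23 other membrane genes of myelin, 18 were higher in Derlin-2 KO, with a median of 0.18. In 4 of them both KO arrays were above both controls and in 2 both were below, against 17.9% and 14.6% of all genes. Hapln2, a link protein of the nodes of Ranvier, had 5.62, 5.74, 7.18 and 6.06, a change of 0.94 (SE 0.34, adjusted p = 0.856) that came mostly from KO replicate 1. Of the 9 myelin lipid genes, 7 were higher, with a median of 0.24. Ugt8a, which makes the galactolipid of myelin, had 8.64, 7.80, 8.88 and 8.71, and Gltp, a glycolipid carrier, had 8.32, 8.01, 7.67 and 7.79. Of the 10 support genes of mature oligodendrocytes that were measured, 8 were higher, with a median of 0.19; Klk6 was on the array but too dim to be tested. The 11 precursor genes had a median of 0.04 with 8 higher. The 8 transcription factors had a median of 0.02, and Sox10 itself had 11.03, 10.61, 11.10 and 10.79. The 16 growth signals and their receptors had a median of -0.02; Pdgfa, the ligand of the Pdgfra receptor, had 13.42, 13.17, 13.31 and 13.34.

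These counts and medians moved with single arrays, those of the newly formed oligodendrocyte genes included. On control replicate 2 of the Derlin-2 line the membrane, lipid and support lists lay at -0.21, -0.24 and -0.14 from the line mean on the log2 scale, as the plot of the lists by array shows. Without that array the median of the membrane genes was -0.0041 with 11 of 23 higher, that of the lipid genes 0.0049 with 5 of 9 higher, and that of the support genes -0.07 with 2 of 10 higher. Without KO replicate 1 those medians were 0.063, 0.089 and 0.021. Of the 8 transcription factors, 6 were higher with all arrays, 1 without control replicate 2 (median -0.046) and 2 without KO replicate 1 (median -0.099). Of the 11 precursor genes, 8 were higher with all arrays, 7 without control replicate 2 and 5 without KO replicate 1 (median -0.020). The median of the newly formed oligodendrocyte genes was 0.15 with all arrays. It was 0.16 without control replicate 2, with 7 of 7 higher, and 0.09 without KO replicate 1, with 6 of 7 higher. The median of the 6 myelin members, 0.06 with all arrays, was 0.02 without control replicate 2 and -0.03 without KO replicate 1.

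**Figure D5:**
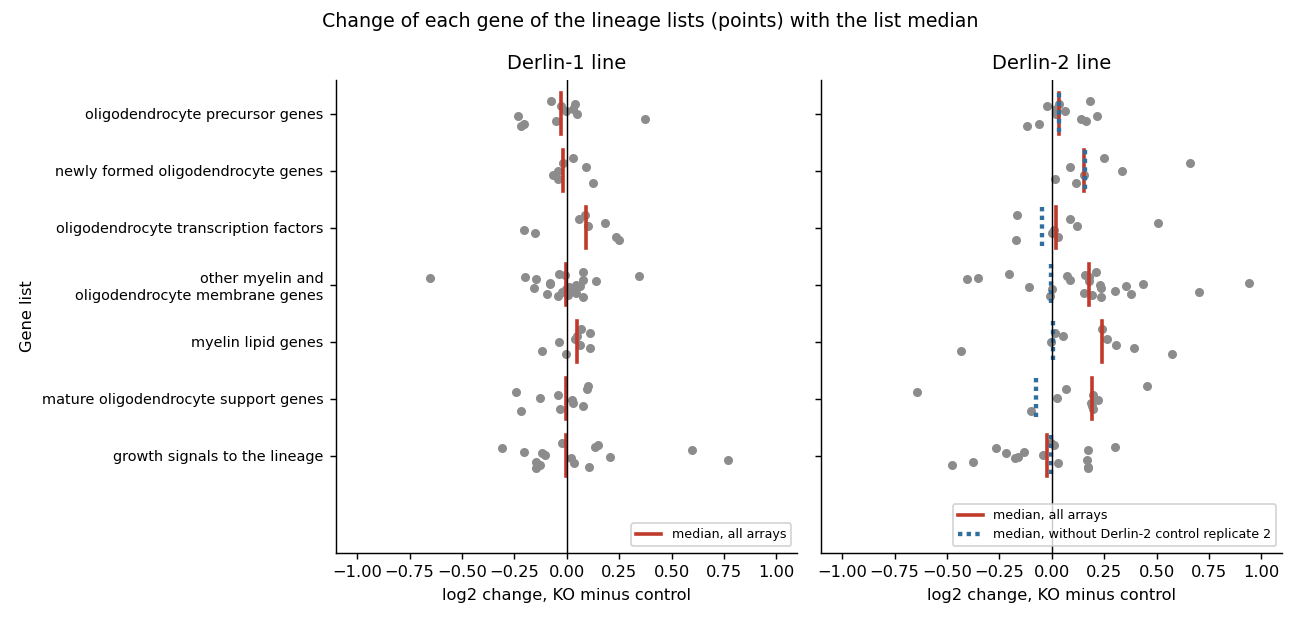
Points are the log2 changes of KO minus control (horizontal axis) of the brightest probe of each gene in 7 lineage lists (vertical axis), with Derlin-1 on the left and Derlin-2 on the right. Red bars are the list medians over all arrays and blue dotted bars the medians without control replicate 2 of the Derlin-2 line. The medians of the membrane, lipid and support lists fall to near 0 without that array, and that of the newly formed oligodendrocyte genes is 0.16. Without KO replicate 1, which is not drawn, the median of the newly formed oligodendrocyte genes is 0.09.

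Signals that act on the lineage were counted last. Of the 16 genes, 6 had both KO arrays above both controls and 1 had both below with Derlin-1, where these shares over all genes were 16.2% and 17.9%. With Derlin-2, 15 genes had values on all 4 arrays (Bmp4 did not); 3 of them had both KO arrays above and 4 below, against 17.9% and 14.6% of all genes. Igf1r was below in both lines, and Fgf2, Erbb3 and Pdgfc were above in both, the last of these named after its values were seen. The share of all genes separated the same way in both lines was not counted, so these genes are only listed. On the Derlin-2 arrays Nrg1, a ligand by which neurons act on the lineage, had log2 levels of 10.63, 11.18, 10.49 and 10.57. Its receptor gene Erbb3 had 7.55, 7.37, 7.89 and 7.64 there. Neither passed the test on those arrays (limma, adjusted p = 0.981 and 0.932).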

How the data were processed

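Total RNA of mouse dentate gyrus was hybridised to 8 one-colour Agilent arrays. Per the labels, the authors read the arrays with Agilent Feature Extraction (10.7.1.1). The deposited scanner files hold each spot's processed signal intensity, background-corrected by that software. The authors also deposited tables of quantile-normalized log2 values with their own fold changes, which were not used. The deposited log2 values served as an alternative and the gene symbols as names. Their coordinates are of another build than the RefSeq tables, so gene coordinates are not given.

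Control and outlier spots were left out, signals were floored at 1, quantile-normalized and averaged per probe. Probes well above background on both arrays of at least 1 group were kept (39937 of 56605). The 4 group means were fitted over all 8 arrays with limma (3.58.1, R 4.3.3). p-values were adjusted over all probes (Benjamini-Hochberg) at 0.05. The residual degrees of freedom were 4 and the prior ones 2.08. The fit was tested on simulated data. The number of arrays limits the precision. The members and gene lists were chosen with earlier results of these data known. In each list, the first gene and the genes with the smallest p in each line were named; 1 of these is not reported here. The normexp alternative used the median signal and the median background, with an offset of 50. The arrays were fitted as unpaired. Deviations of same-numbered arrays correlated at 0.26 (Derlin-1) and -0.10 (Derlin-2). With 2 pairs a line these values cannot decide whether the replicate numbers pair the arrays. By median difference of replicate 2 minus 1, the myelin genes moved alike in Derlin-1 controls and KO (0.42 and 0.40). The 3 precursor genes did not (-0.12 and 0.11).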

Additional observations from a re-analysis of the deposited data

How the results depend on the processing

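The number of member probes past the threshold was 0 in both lines and for the difference of the lines under every alternative run (a fit of each line alone gives no difference of the lines). Leaving out each array in turn, it ranged from 0 to 0. With the replicate number as a block within each line, the counts were again 0, 0 and 0 and the medians of the myelin genes -0.038 and 0.062. The median of the myelin genes stayed within the spread between replicates under all alternatives, from -0.22 to 0.16 in the Derlin-1 line and from -0.03 to 0.14 in the Derlin-2 line. The median of the precursor genes in the Derlin-2 line, 0.089, was -0.0099 with the normexp background correction. The cause of that shift was not tested. The median was -0.070 without the last eighth of the array rows, which left Olig2 without a probe. It then lay between Olig1 (-0.02) and a dim Pdgfra probe (level 5.15, change -0.12). With all probes of a gene averaged the median was -0.0015, as the Pdgfra value then took in its dim probes (-0.12 and -0.06). The last eighth, from row 337 of 384, held 8 of the 14 probes called in the Derlin-2 line against 13.0% of those tested, and the brightest Pdgfra and Olig2 probes. Leaving out each array, that median ranged from -0.030 to 0.181, and in the Derlin-1 line from -0.070 to 0.172. The count of lineage genes among the 100 most like the myelin mean was 6 and, leaving out each array, ranged from 0 to 5. It was 3 with Mbp left out, a choice made after seeing the data, as were the list medians without each array.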
